A study of Mus musculus with 54 samples.

Results

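The genes for the subunits of the mitochondrial respiratory chain were followed across sorted cells of the fetal mouse intestine. They were chosen by symbol alone, as the rows named Ndufa, Ndufb, Ndufc, Ndufs or Ndufv with a number, Sdha to Sdhd, Uqcr, Cox4 to Cox8 and Atp5, and no measured value entered the choice. The rule found 86 of the 16901 genes in the table that holds the epithelium and 2 mesenchymal sorts. Of these, 35 belong to complex I, 4 to complex II, 8 to complex III, 14 to complex IV and 16 to complex V. The other 9 are 6 gene copies or pseudogenes (Atp5c1-ps, Ndufa11b, Ndufb4b, Ndufb4c, Ndufs6b and Uqcrh-ps1) and 3 genes named like subunits (Ndufa4l2, Cox7a2l and Atp5s). Reads of a copy and its parent gene can be confused, so the levels of the 6 copies are uncertain. All 86 genes passed the filter on low values among the E16.5 sorts and in the table with CD29-HIGH cells. Cox4i2 was not among the genes of the inhibitor and E13.5 tables, and Ndufa4l2 was not tested at E13.5.

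RNA was sequenced from 54 libraries of cells sorted from fetal intestine as negative for DAPI, CD31 and CD45. At E16.5 the sorts were EpCAM (EpCAM+ epithelium), PDGFRA-HIGH (PDGFRahigh, CD29med, EpCAM-), CD29-HIGH (PDGFRamed, CD29high, EpCAM-) and PDGFRA-MED (PDGFRamed, CD29med, EpCAM-), each from the distal, mid and proximal segments of untreated C57Bl/6J fetuses with 3 libraries per sort and segment. EpCAM cells were also sorted at E13.5 from the distal and proximal intestine of untreated C57Bl/6J fetuses (3 libraries each). In a further set, EpCAM cells came from E16.5 Top.CFP fetuses, which carry a reporter of Wnt signalling. Their dams had received LGK974, an inhibitor of the enzyme PORCN that blocks Wnt secretion, from E12.5 to E16.5 (3 libraries per segment), or the vehicle (1 library per segment).

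The respiratory chain sits in the inner mitochondrial membrane. Complexes I and II feed electrons from NADH and succinate to ubiquinone, complex III passes them to cytochrome c, and complex IV hands them to oxygen. Complexes I, III and IV pump protons, and complex V uses the proton gradient to make ATP. Most subunits are encoded in the nucleus and imported, while a small core of complexes I, III, IV and V is encoded by mitochondrial DNA. Several subunits of complexes IV and V exist as isoforms from separate genes, and differentiated absorptive epithelium and muscle are tissues known for dense mitochondria.

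Libraries held 15072991 to 26658039 reads, recovered from the values and gene lengths. Libraries of one group correlated with Spearman's rho of 0.973 to 0.996. Summed RPKM of 6 epithelial markers reached 1350 to 1643 in E16.5 EpCAM libraries, against 1.60 to 29.8 in the mesenchymal sorts measured beside them. Summed RPKM of 5 smooth muscle markers was 13154 to 23366 in CD29-HIGH libraries, against 161 to 287 in PDGFRA-MED libraries. Bulk libraries cannot tell apart fewer cells of a type and less RNA per cell. Levels below are RPKM, reads scaled to gene length and library size, and differences are log2 ratios of RPKM + 0.5.

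Promoters of the respiratory chain genes are shown because many of these genes are known to share sites for the factors NRF1, the ETS family (GABPA), the estrogen-related receptors (ERR) and YY1. RefSeq (GRCm38.p6) promoters of 300 bases, from 250 before to 50 after the start, were at hand for 67 of the 86 genes. The motifs searched on both strands were GCGCATGCG (NRF1), CCGGAAGT (ETS), TCAAGGTCA (ERR) and AAGATGGC (YY1), and matches to different motifs did not overlap. At least 1 of the 4 occurred in 24 of the 67 genes (35.8%), against 9.39% of all 27025 annotated genes with such a promoter, expressed or not. NRF1 matched 8 of the genes (11.9%, against 1.95% of all), ETS 5 (7.46%, against 4.31%), ERR 2 (2.99%, against 0.466%) and YY1 10 (14.9%, against 3.19%). A match describes letters in a window and is not a measured binding site. The lines below give 60 bases before the start, 5′ to 3′ on the gene's own strand, with the motif in capitals, for the gene with the largest epithelial excess among those holding each motif wholly before the start, and for Cox6b2, an isoform gene lower in epithelium, which held no match:
Cox6a1, chr5:115349086-115349145, minus strand, NRF1 match on the opposite strand beginning 161 bases before the start (from 1 base earlier the letters also match on the gene's own strand): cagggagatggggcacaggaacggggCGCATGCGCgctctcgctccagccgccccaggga
Uqcr11, chr10:80406854-80406913, minus strand, ETS match beginning 66 bases before the start: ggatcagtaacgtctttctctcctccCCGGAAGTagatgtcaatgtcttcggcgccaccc
Atp5g3, chr2:73911345-73911404, minus strand, ERR match on the opposite strand beginning 52 bases before the start: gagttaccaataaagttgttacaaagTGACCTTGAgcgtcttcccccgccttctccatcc
Atp5j, chr16:84835031-84835090, minus strand, YY1 match beginning 88 bases before the start: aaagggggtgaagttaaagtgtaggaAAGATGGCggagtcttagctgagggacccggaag
Cox6b2, chr7:4753095-4753154, minus strand, no match: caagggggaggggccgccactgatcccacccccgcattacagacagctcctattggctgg
The log2 differences between EpCAM and PDGFRA-HIGH cells were 2.16 for Cox6a1, 2.40 for Uqcr11, 1.84 for Atp5g3, 1.40 for Atp5j and -2.05 for Cox6b2. The 5 windows were chosen by these differences and by the motif, so nothing follows from the match between them.

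Respiratory chain genes of all 5 complexes were higher in EpCAM cells than in PDGFRA-HIGH cells, the sorted mesenchyme with most PDGFRa. Of the 86 genes, 78 were higher and 3 lower, where 32.7% of all 14732 genes tested were higher and 30.3% lower. A gene was called with limma when its change exceeded 0.5 on the log2 scale at an adjusted p below 0.05, over the mean of the 3 segments. The median difference of the 86 genes was 1.51, against 0.04 for all genes. Complex II was higher in 4 of 4 genes (median 1.64), complex III in 8 of 8 (1.73) and complex V in 16 of 16 (1.68). Complex I was higher in 32 of 35 genes (1.29), among them all 7 core subunits of the electron path (1.39). Complex IV was higher in 12 of 14 genes (1.76), and its other 2 genes, both isoforms, were lower.

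**Figure D1:**
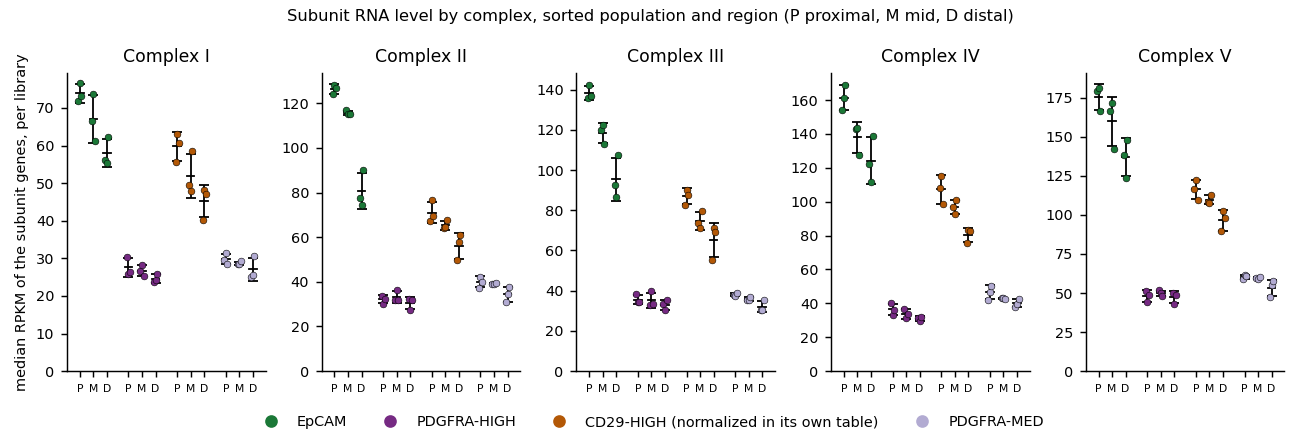
Median RPKM of the subunit genes of complexes I to V in each library, by sort and intestinal segment (P proximal, M mid, D distal). Points are libraries, and bars give the mean ± SD of 3 libraries. CD29-HIGH values come from a table that was normalized separately. EpCAM libraries lay above PDGFRA-HIGH and PDGFRA-MED libraries in every complex, as in complex V, where EpCAM libraries spanned 124 to 181 and PDGFRA-HIGH libraries 43.0 to 51.6.

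The medians by complex did not overlap between the sorts. In complex I the median RPKM of a library was 55.3 to 76.6 in EpCAM cells, against 23.8 to 30.4 in PDGFRA-HIGH cells. In complex III it was 86.5 to 143 in EpCAM cells, against 30.3 to 39.6 in PDGFRA-HIGH cells. Together the 86 genes took 1.28 to 1.80% of all RPKM in EpCAM libraries and 0.626 to 0.739% in PDGFRA-HIGH libraries. In the plot of medians by complex the epithelial points step down from the proximal to the distal segment while those of PDGFRA-HIGH cells lie nearly flat.

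Atp5g1 differed most among the genes that were higher. It is one of a set of genes that encode the same mature c subunit, which forms the rotating membrane ring of complex V. Its RPKM was 52.0, 55.0 and 47.4 in proximal, 44.2, 50.1 and 43.0 in mid and 36.4, 35.2 and 39.5 in distal EpCAM libraries, against 4.92 to 8.12 over the 9 PDGFRA-HIGH libraries. The lowest epithelial library was thus well above the highest mesenchymal one (difference 2.71, SE 0.07, adjusted p = 8.51e-18). Uqcr11 and Uqcrq, small subunits of complex III, followed a like pattern. Uqcr11 spanned 87.6 to 154.6 RPKM in EpCAM and 17.3 to 27.3 in PDGFRA-HIGH libraries (2.40, SE 0.08, adjusted p = 6.75e-16). Uqcrq spanned 109.5 to 268.7 RPKM in EpCAM and 30.6 to 43.9 in PDGFRA-HIGH libraries (2.29, SE 0.06, adjusted p = 6.94e-18). Cox7b, a small nuclear-encoded subunit of complex IV, reached 137 to 205 RPKM in EpCAM libraries and 30.9 to 40.6 in PDGFRA-HIGH libraries (2.25, SE 0.04, adjusted p = 6.84e-20).

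The catalytic and core subunits were higher as well. Ndufs1 and Ndufv1, which carry iron-sulfur clusters of complex I, had differences of 1.39 and 1.64. Sdha and Sdhb, the succinate-oxidising head of complex II, had 1.499 and 1.77, and the membrane anchor Sdhd had 2.09. Uqcrc1 and the Rieske protein Uqcrfs1 of complex III had 1.79 and 1.67. In complex IV, Cox4i1 had 1.64 and Cox5a had 1.94. Atp5b, the catalytic beta subunit of complex V, reached 449.5 to 636 RPKM in EpCAM libraries and 141 to 169 in PDGFRA-HIGH libraries (1.84), while Atp5a1 and Atp5o had 1.61 and 1.90. The genes that did not pass were Ndufa1 (0.29), Ndufv3 (0.27) and Ndufs4 (0.45) of complex I, Cox7a2l (0.18), which aids the joining of complexes into supercomplexes, and the copy Ndufa11b (0.76, adjusted p = 0.0772).

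**Figure D2:**
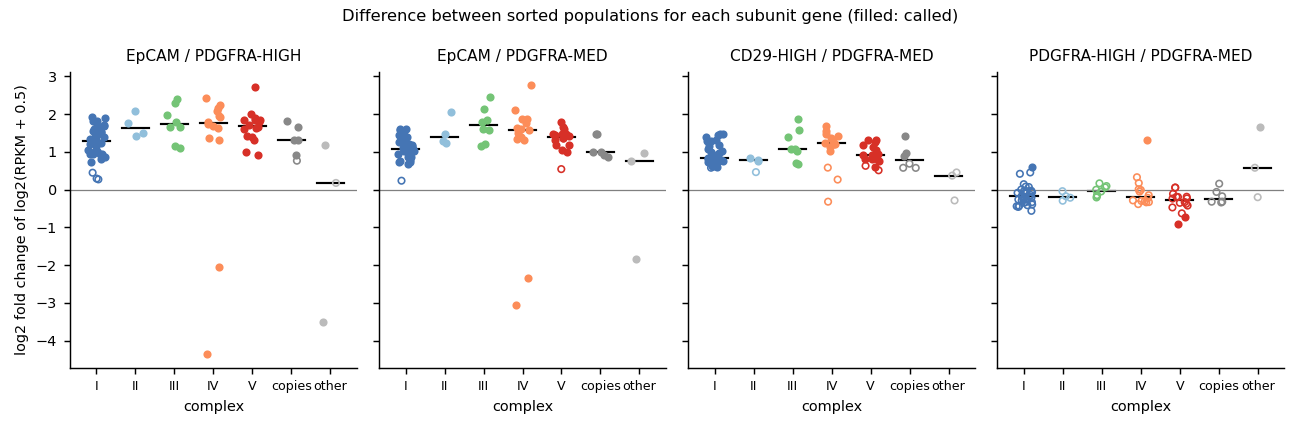
Log2 difference of each gene by complex in 4 sort comparisons: EpCAM over PDGFRA-HIGH, EpCAM over PDGFRA-MED, CD29-HIGH over PDGFRA-MED and PDGFRA-HIGH over PDGFRA-MED. Filled points passed the test, open points did not, and the short lines are medians. Most points lie above 0 in the first 3 panels, and in the last one 67 of 86 lie below 0.

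The direction was the same against PDGFRA-MED cells. In EpCAM cells 81 of the 86 genes were higher and 3 lower (28.9% and 27.6% of all genes), with a median of 1.30 against 0.03 for all genes. Complex I was higher in 34 of 35 genes (median 1.08), complex II in 4 of 4 (1.38), complex III in 8 of 8 (1.70), complex IV in 12 of 14 (1.58) and complex V in 15 of 16 (1.40). The largest differences belonged to Cox7a1 (2.76), Uqcr11 (2.46), Uqcrq (2.15), Cox5a (2.11) and Sdhd (2.04). Atp5g2 (0.54, adjusted p = 0.333) and Ndufa1 (0.23) did not pass. Both comparisons use the same 9 EpCAM libraries, so they are not independent of each other.

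Isoform genes parted from the rest of the chain. Cox4i2 is the isoform of Cox4i1 known for its response to low oxygen, Ndufa4l2 is a relative of the complex IV subunit Ndufa4 that is induced by hypoxia-inducible factor, and Cox6b2 is the testis isoform of Cox6b1. All 3 were lower in EpCAM cells than in both mesenchymal sorts. Cox7a1, known as the heart and muscle isoform of Cox7a2, was higher in epithelium.

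Cox4i2 (chr2:152753916-152765039) was at or near 0 in epithelium. Its RPKM was 0.215, 0.0728 and 0.448 in proximal, 0.213, 0.202 and 0 in mid and 0.304, 0.139 and 0.0568 in distal EpCAM libraries. In PDGFRA-HIGH libraries it was 11.7, 12.8 and 13.6 in proximal, 12.53, 18.6 and 13.3 in mid and 8.96, 14.4 and 15.3 in distal segments. In PDGFRA-MED libraries it spanned 4.20 to 6.76. No library of one sort reached the range of another. The differences were -4.35 for EpCAM against PDGFRA-HIGH (SE 0.12, adjusted p = 1.14e-17) and -3.05 for EpCAM against PDGFRA-MED (SE 0.12, adjusted p = 1.97e-14). As a share of the RPKM of the Cox4 pair, Cox4i2 did not exceed a mean of 0.0636% in EpCAM cells of any segment. It made up 9.67 ± 1.39% (SD, n = 3) in proximal, 11.5 ± 2.45% in mid and 10.6 ± 3.11% in distal PDGFRA-HIGH cells. In PDGFRA-MED cells the share was 3.27 ± 0.30% in proximal and 4.26 ± 1.08% in distal segments.

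**Figure D3:**
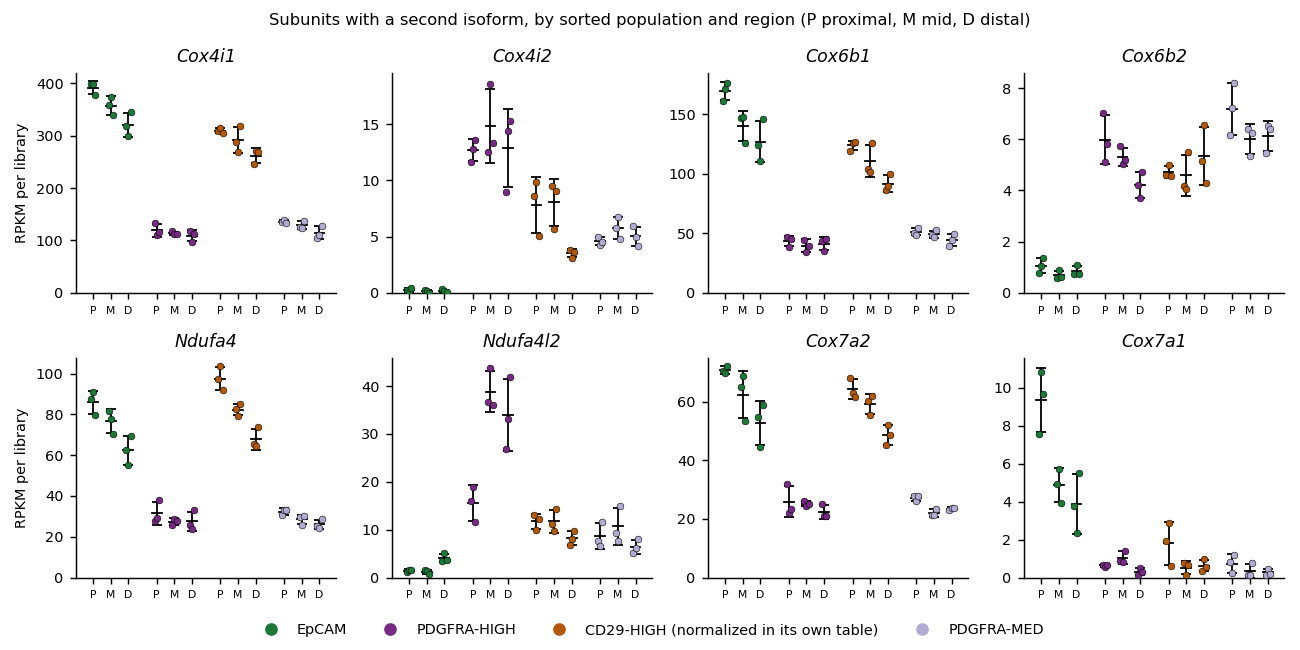
RPKM per library of 4 pairs of isoform genes (Cox4i1 and Cox4i2, Cox6b1 and Cox6b2, Ndufa4 and Ndufa4l2, Cox7a2 and Cox7a1) in EpCAM, PDGFRA-HIGH, CD29-HIGH and PDGFRA-MED libraries by segment, each point a library, with bars for the mean ± SD of 3. The widely used member of each pair was higher in every EpCAM than in every PDGFRA-HIGH and PDGFRA-MED library, while Ndufa4l2 peaked in PDGFRA-HIGH libraries at 43.7 and stayed at or below 5.03 in EpCAM libraries.

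Ndufa4l2 (chr10:127509274-127517154) was higher in PDGFRA-HIGH cells than in the other sorts beside them. EpCAM libraries had 0.83 to 1.67 RPKM in proximal and mid segments and 3.45, 5.03 and 3.65 in the distal segment. PDGFRA-HIGH libraries had 16.04, 18.95 and 11.5 RPKM in proximal, 36.7, 43.7 and 36.0 in mid and 26.9, 33.1 and 41.9 in distal segments. PDGFRA-MED libraries lay between, at 5.16 to 15.0. The proximal PDGFRA-HIGH libraries reached down into the PDGFRA-MED range, and the mid and distal ones did not. The differences were -3.49 for EpCAM against PDGFRA-HIGH (SE 0.15, adjusted p = 1.23e-13) and -1.83 for EpCAM against PDGFRA-MED (SE 0.15, adjusted p = 5.31e-08). The call against PDGFRA-MED was kept under 27 of the alternatives and lost under 1. Of the RPKM of the Ndufa4 pair, Ndufa4l2 made up 33.1 ± 8.65% in proximal, 58.5 ± 1.97% in mid and 55.0 ± 3.62% in distal PDGFRA-HIGH cells (SD, n = 3). In mid and distal PDGFRA-HIGH cells it was therefore the more abundant member of the pair, per unit of length.

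Cox6b2 (chr7:4751792-4753094) was at a low level in every sort. It spanned 0.599 to 1.35 RPKM in EpCAM, 3.69 to 7.03 in PDGFRA-HIGH and 5.35 to 8.18 in PDGFRA-MED libraries. The differences of EpCAM cells were -2.05 against PDGFRA-HIGH (SE 0.08, adjusted p = 8.88e-14) and -2.35 against PDGFRA-MED (SE 0.08, adjusted p = 3.94e-15). Its partner Cox6b1 spanned 111 to 176 RPKM in EpCAM and 34.2 to 46.8 in PDGFRA-HIGH libraries, so the pair moved in opposite directions.

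Cox7a1 (chr7:30184171-30186030) reached 7.55, 10.8 and 9.68 RPKM in proximal, 4.95, 5.74 and 3.92 in mid and 3.77, 2.34 and 5.53 in distal EpCAM libraries, against 0.145 to 1.43 in PDGFRA-HIGH libraries. Every epithelial library was above every PDGFRA-HIGH library (2.43, SE 0.17, adjusted p = 5.27e-10). It held 11.7 ± 1.89% of the RPKM of the Cox7a1 and Cox7a2 pair in proximal and 6.69 ± 1.80% in distal EpCAM cells, against 2.44% in proximal and 1.41% in distal PDGFRA-HIGH cells. Among the genes of the c subunit, Atp5g3 was the most abundant in EpCAM cells, with 71.4% of the RPKM of the 3 genes in the proximal segment. Atp5g1 held 15.5% there, against 7.34% in PDGFRA-HIGH cells, and Atp5g2 held 13.1%, against 26.2% in PDGFRA-HIGH cells.

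PDGFRA-HIGH and PDGFRA-MED cells differed in a few genes of the chain. Of the 86 genes, 3 were higher in PDGFRA-HIGH cells (13.1% of all genes) and 2 were lower (13.7%), with a median of -0.19 against -0.02 for all genes. The higher genes were Ndufa4l2 (1.66, SE 0.15, adjusted p = 9.82e-07), Cox4i2 (1.30, SE 0.12, adjusted p = 8.49e-06) and Ndufs4 (0.61, SE 0.04, adjusted p = 0.0249). Ndufs4, an accessory subunit of the NADH-oxidising arm of complex I, spanned 34.6 to 46.2 RPKM in PDGFRA-HIGH and 25.3 to 31.4 in PDGFRA-MED libraries. Its call was lost with quantile normalization (adjusted p = 0.898), with median centring (adjusted p = 0.321) and without any of 6 libraries (adjusted p = 0.0512 to 0.0727), which were proximal replicates 1 and 3, mid replicate 3 and distal replicate 2 of PDGFRA-MED and proximal replicate 1 and distal replicate 3 of PDGFRA-HIGH. The lower genes were Atp5g1 (-0.92, SE 0.07, adjusted p = 2.33e-05) and Atp5e (-0.71, SE 0.06, adjusted p = 0.00566). Atp5e, the epsilon subunit of the F1 head, spanned 24.0 to 28.1 RPKM in PDGFRA-HIGH and 33.8 to 46.8 in PDGFRA-MED libraries. In each of the 3 segments tested alone, 2 genes passed throughout, Cox4i2 and Atp5g1. Without a minimum change, 52 of the 86 genes were lower and 9 higher (37.7% and 38.4% of all genes), and 14 of the 16 genes of complex V were among the lower ones. The median of the chain was thus slightly below 0, and it ran opposite to that of Cox4i2 and Ndufa4l2.

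CD29-HIGH cells, which carried smooth muscle markers, also had higher levels of the chain than PDGFRA-MED cells. In a table of their own, 73 of the 86 genes were higher and 0 lower at adjusted p below 0.05 (14.4% and 12.3% of all 13334 genes), with a median of 0.90 against 0.01 for all genes. With limma and no minimum change the counts were 82 higher and 2 lower (39.5% and 37.9%). Complex I was higher in 34 of 35 genes (median 0.85), complex II in 3 of 4 (0.77), complex III in 8 of 8 (1.08), complex IV in 11 of 14 (1.22) and complex V in 14 of 16 (0.91).

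Uqcr11 led again, with 56.0 to 97.1 RPKM in CD29-HIGH and 12.9 to 26.8 in PDGFRA-MED libraries (1.86, SE 0.08, adjusted p = 1.98e-09). Cox8a, the broadly expressed isoform of the smallest nuclear-encoded complex IV subunit, reached 237.4, 281.2 and 208.5 RPKM in proximal, 221.2, 220.0 and 219.7 in mid and 161.8, 196.8 and 173.3 in distal CD29-HIGH libraries, against 57.7 to 70.5 in PDGFRA-MED libraries (1.70, SE 0.04, adjusted p = 1.83e-12). Uqcrq (1.57), Ndufa4 (1.54) and Ndufa11 (1.48) came next. In each of these genes the lowest CD29-HIGH library exceeded the highest PDGFRA-MED library.

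The isoform genes did not follow in CD29-HIGH cells. Cox4i2 (0.26), Ndufa4l2 (0.37), Cox7a1 (0.58) and Cox6b2 (-0.32) did not pass the test, although Cox7a1 is known for striated muscle. Cox4i2 was 8.63, 9.84 and 5.06 RPKM in proximal, 9.46, 5.66 and 9.05 in mid and 3.85, 3.10 and 3.68 in distal CD29-HIGH libraries, so that its distal libraries were below the range of 4.01 to 6.51 in PDGFRA-MED libraries. Summed mesenchymal markers moved the other way, at 2237 to 2779 RPKM in CD29-HIGH and 4957 to 7767 in PDGFRA-MED libraries, and the part of a change in cell make-up was not tested.

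Genes around the chain showed which neighbouring pathways moved in the same comparisons. In EpCAM against PDGFRA-HIGH cells, where 32.7% of all genes were called higher and 30.3% lower, complex I assembly factors were higher in 12 of 17 genes. They were led by Ndufaf6 (1.73) and Ndufaf8 (1.69). Assembly factors of the other complexes were higher in 26 of 35 genes and lower in 1, led by Coa4 (2.78), Fmc1 (1.98) and the copper chaperone Cox17 (1.87). Subunits and carriers outside the name rule were higher in 10 of 10 genes, among them cytochrome c1 (Cyc1, 2.13) and cytochrome c (Cycs, 1.71). Genes of the TCA cycle and pyruvate dehydrogenase were higher in 16 of 21 (Idh3a 2.34, Suclg1 2.16), those of fatty acid beta oxidation in 13 of 16 (Hadh 3.22, Acaa2 2.68) and those of the mitochondrial ribosome in 75 of 78. Glycolysis genes were divided, with 9 of 18 higher (Aldoc 2.76, Pgk1 1.68) and 4 lower (Hk1 -3.31, and Slc16a3, a lactate exporter, -1.78).

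In CD29-HIGH against PDGFRA-MED cells the TCA cycle list was higher in 15 of 21 genes (Mdh2 1.29, Cs 1.09) and lower in 1, while beta oxidation was higher in 3 of 16 and the mitochondrial ribosome in 16 of 78, shares near the 14.4% of all genes called higher. In EpCAM against PDGFRA-MED cells the ribosome list was higher in 67 of 78 genes, where 28.9% of all genes were. In PDGFRA-HIGH against PDGFRA-MED cells glycolysis was the list with most calls, with 11 of 18 genes higher, where 13.1% of all genes were. Among them were Hk2 (2.22), Slc16a3 (2.15), Pfkp (1.82) and Aldoa (1.27).

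The 13 subunits encoded in mitochondrial DNA had a smaller median difference than the nuclear ones between epithelium and mesenchyme. In EpCAM against PDGFRA-HIGH cells 1 of the 13 was higher (ND3, 0.83, SE 0.08), where 32.7% of all genes were. The median of the 13 was 0.30, beside the nuclear median of 1.51. Against PDGFRA-MED cells 6 were higher (28.9% of all genes), with a median of 0.68. In CD29-HIGH against PDGFRA-MED cells 12 of the 13 were higher, where 14.4% of all genes were. The median of the 13 was 1.06 (led by ND5 at 1.44), near the nuclear median of 0.90. These libraries were made from total RNA, and the difference between the nuclear and mitochondrial sets was not tested.

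The list of inner membrane carriers also holds the mitochondrial creatine kinase Ckmt1, which is not a carrier. In EpCAM against PDGFRA-HIGH cells 8 of its 14 genes were higher and 2 lower, led by Ckmt1 (6.76) and the ADP and ATP carrier Slc25a5 (2.48). Of 25 regulators of mitochondrial genes, 12 were higher and 2 lower, beside 32.7% and 30.3% of all genes. Ppargc1b, a coactivator of ERR and NRF factors, was 5.89 to 17.7 RPKM in EpCAM, 0.131 to 0.898 in PDGFRA-HIGH and 1.23 to 1.96 in PDGFRA-MED libraries. Esrra, the receptor ERR alpha, was 16.8 to 22.3 RPKM in EpCAM, 3.67 to 5.33 in PDGFRA-HIGH and 1.91 to 2.43 in PDGFRA-MED libraries. The sorts did not overlap in either gene, and EpCAM cells differed from PDGFRA-HIGH cells by 3.67 (SE 0.09, adjusted p = 3.75e-19) in Ppargc1b and by 2.04 (SE 0.06, adjusted p = 2.28e-16) in Esrra. Myc (2.32) and Tfam (1.12), which packages mitochondrial DNA and takes part in its transcription, were also higher. Ppargc1a (-0.51, adjusted p = 0.651), Nrf1 (-0.26, adjusted p = 1) and Gabpa (-0.12, adjusted p = 1) did not pass.

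In PDGFRA-HIGH against PDGFRA-MED cells, Ppargc1a (1.76) and Esrra (0.87) were higher, Ppargc1b (-1.13) and Myc (-1.58) were lower, and Tfam (-0.32), Nrf1 (-0.13) and Gabpa (-0.05) did not pass. CD29-HIGH cells had more Ppargc1b (2.58), Ppargc1a (1.49), Myc (0.87) and Esrra (0.79) than PDGFRA-MED cells, and Tfam (-0.35), Nrf1 (-0.23) and Gabpa (-0.10) did not pass. Ppargc1b and Myc were thus called higher in both sorts that were high in the chain, and lower in PDGFRA-HIGH than in PDGFRA-MED cells. Esrra was called higher in both of those sorts too, but also in PDGFRA-HIGH cells. The part of any regulator in these differences was not tested.

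Along the intestine, the chain was lower in distal than in proximal epithelium by a small amount in nearly every gene. In E16.5 EpCAM cells 1 of 86 genes passed with the minimum change, Uqcrq, which was lower (3.96% of all genes were lower and 1.92% higher). The median of the 86 genes was -0.41, against 0.01 for all genes, and 83 of 86 differences were negative. Without a minimum change 64 were lower and 1 higher (16.4% and 14.6% of all genes). In 70 genes every distal library was below every proximal one (21.8% of all genes), and in 1 gene, Ndufa4l2, every distal library was above (21% of all genes).

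Uqcrq (chr11:53427922-53430831) was 109.5, 121.9 and 156.4 RPKM in distal, 185.1, 229.1 and 214.3 in mid and 222.2, 268.7 and 247.9 in proximal EpCAM libraries (distal against proximal -0.94, SE 0.10, adjusted p = 0.00313). Sdhb, the iron-sulfur subunit of complex II, was 80.5, 74.9 and 89.1 RPKM in distal, 122.2, 119.2 and 116.4 in mid and 131.8, 138.4 and 129.9 in proximal libraries (-0.71, SE 0.08, adjusted p = 0.141 with and 8.84e-07 without the minimum change). Ndufs1 was 41.6, 42.5 and 46.8 RPKM in distal and 66.3, 66.2 and 67.7 in proximal libraries (-0.61, SE 0.05). In all 3 genes the distal libraries lay below the mid and proximal ones. The medians by complex were -0.59 for complex II, -0.51 for complex III, -0.41 for complex I, -0.40 for complex V and -0.39 for complex IV. Core subunits of complex I had a median of -0.52 and its accessory subunits -0.33.

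More genes passed between the distal and mid segments than between the mid and proximal ones. Of the 86 genes, 33 were lower in distal than in mid EpCAM cells without a minimum change (9.56% of all genes, median -0.25), and 4 were lower in mid than in proximal cells (9.34% of all genes, median -0.16). Ndufa4l2 went the other way, with a distal against proximal difference of 1.24 (SE 0.26, adjusted p = 0.0763 with and 0.000922 without the minimum change). Cox7a1 had a difference of -1.22 (SE 0.29, adjusted p = 0.160 with and 0.00288 without it).

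**Figure D4:**
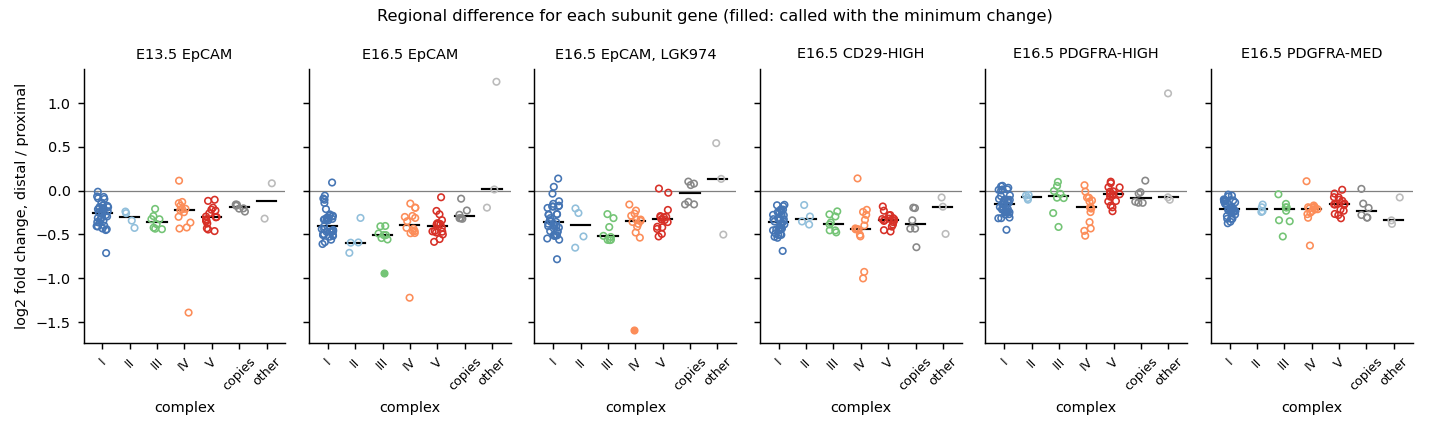
Distal over proximal log2 difference of each gene by complex in E13.5 EpCAM, E16.5 EpCAM, LGK974 EpCAM, CD29-HIGH, PDGFRA-HIGH and PDGFRA-MED cells. Filled points passed the test with a minimum change, and short lines are medians. Most points lie below 0, with medians of -0.41 in E16.5 EpCAM and -0.11 in PDGFRA-HIGH cells over all genes of the chain.

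The same direction was seen in other sorts and at the earlier age, with different extents. CD29-HIGH cells had a median of -0.35, with 85 of 86 differences negative, 0 calls with limma and a minimum change (1.39% of all genes lower), 73 genes lower without it (16.5%) and 65 genes without overlap (21.4%). E13.5 EpCAM cells had a median of -0.26, with 82 of 84 negative, 0 calls with a minimum change (0.762%), 40 lower without it (7.22%) and 53 without overlap (16.3%). PDGFRA-MED cells had a median of -0.20 with 0 calls (0.563%) and 10 genes lower without a minimum change (8.04%). PDGFRA-HIGH cells had a median of -0.11 with 0 calls (1.3%), 9 genes lower without a minimum change (10.4%) and 19 lower without overlap (17.5%). The shares in both PDGFRA sorts were nearer to those of all genes, and whether the extents differ between sorts was not tested.

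Ndufa4l2 was higher in distal PDGFRA-HIGH cells by 1.11 without reaching the threshold (adjusted p = 0.343 with and 0.00388 without the minimum change). In distal CD29-HIGH cells Cox4i2 differed by -1.002 (adjusted p = 0.376 with and 0.0025 without it). The mitochondrially encoded subunits had distal against proximal medians of -0.27 in E16.5 EpCAM, 0.01 in CD29-HIGH and 0.26 in E13.5 EpCAM cells, so the distal reduction of nuclear genes was matched by a negative median of the mitochondrial ones in 1 of these 3 sets.

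Other markers moved along the same axis. Summed RPKM of 5 enterocyte markers was 268 to 674 in distal and 2793 to 4293 in proximal E16.5 EpCAM libraries. Pancreas markers summed to 0.0255 to 3.71 RPKM in distal and 1917 to 3933 in proximal EpCAM libraries, and were at 0.543 to 325 in mid ones. Mesenchymal markers summed to 74.7 to 90.0 RPKM in distal and 32.4 to 47.9 in proximal E16.5 EpCAM libraries, and to 210 to 368 in distal and 33.6 to 65.1 in proximal E13.5 EpCAM libraries. Blood markers summed to 136 to 352 RPKM in distal and 372 to 569 in proximal E16.5 EpCAM libraries, and to 199 to 498 in distal and 551 to 8674 in proximal PDGFRA-MED libraries. The part of these markers in the regional differences was not tested. In LGK974 EpCAM cells the distal against proximal median of the chain was -0.34, with 77 of 85 genes negative and 51 lower without overlap (24.5%). Pancreas markers there were at 0.227 to 0.796 RPKM in distal and 3.32 to 9.11 in proximal libraries. These libraries differ from the untreated ones in treatment and strain label, and the part of the markers was not tested in them either.

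Fatty acid beta oxidation was also lower in distal than in proximal E16.5 EpCAM cells, in 7 of 16 genes (3.96% of all genes), with a median of -0.62. Cpt1a (-1.07, SE 0.10, adjusted p = 0.000221), which commits fatty acids to mitochondria, Acadvl (-1.07), Acaa2 (-1.04) and Decr1 (-0.997) were lower. In the TCA list Dlat (-1.05) and Ogdh (-0.71) were among the lower genes, with a median of -0.46. The mitochondrial ribosome had 0 calls with limma and a median of -0.15, and the glycolysis median was 0.07. Among regulators Ppargc1b was 6.48, 7.16 and 5.89 RPKM in distal and 17.7, 16.3 and 17.1 in proximal EpCAM libraries (-1.32, SE 0.15, adjusted p = 0.00033), without overlap. Myc had 0.76 (adjusted p = 0.394), Ppargc1a 0.43, Esrra -0.21, Tfam -0.18, Nrf1 0.12 and Gabpa -0.10, and none of these passed.

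Between E13.5 and E16.5 epithelium, levels are given side by side without a test, because the 2 ages were normalized in separate tables. The segments are also unlike, since the intestine was cut into 5 sections at E16.5 and 3 at E13.5. In the proximal segment 80 of 85 genes were higher in every E16.5 library than in every E13.5 library (26% of all genes), and in the distal segment 79 of 85 were (26.7%). The median log2 ratio of E16.5 over E13.5 means was 0.85 in proximal and 0.70 in distal cells, while the median of all genes was -0.23 in proximal and -0.21 in distal cells. By complex, the proximal and distal medians were 0.72 and 0.62 for complex I, 1.19 and 0.98 for complex II, 1.05 and 0.93 for complex III, 0.89 and 0.88 for complex IV, and 0.88 and 0.78 for complex V. The mitochondrially encoded set had medians of 0.19 in proximal and -0.31 in distal cells.

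Uqcrq averaged 246 ± 23.3 RPKM at E16.5 and 70.7 ± 9.78 at E13.5 in proximal cells (SD, n = 3), a log2 ratio of 1.79. Ndufb10, an accessory subunit of complex I, averaged 213 ± 12.52 at E16.5 and 82.1 ± 12.1 at E13.5 (1.37). Cox7a1 averaged 9.36 ± 1.67 at E16.5 and 2.95 ± 0.58 at E13.5 in proximal cells, and 3.88 ± 1.60 and 0.970 ± 0.93 in distal cells. Ndufa4l2 averaged 4.04 ± 0.86 RPKM at E16.5 and 0.514 ± 0.24 at E13.5 in distal cells, a ratio of 2.16. Levels of Atp5g2 and Cox6b2 overlapped between the ages in proximal cells. Those of Atp5g1, Atp5g3, Cox4i1, Cox6b1 and Cox7a2 were higher at E16.5 without overlap. Atp5g2 averaged 43.6 ± 1.2 at E16.5 and 43.0 ± 2.0 at E13.5 in proximal cells, and Cox6b2 averaged 1.06 ± 0.29 at E16.5 and 1.33 ± 0.14 at E13.5.

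The inhibitor comparison asked whether blocking Wnt secretion changed these genes. Each segment set 3 LGK974 libraries (Top.CFP) against 4 controls, of which 3 were untreated C57Bl/6J and 1 was vehicle-treated Top.CFP. Strain and treatment cannot be told apart against the untreated libraries. The untreated libraries are the E16.5 EpCAM libraries already described. Few genes of the chain passed. In proximal cells 0 of 85 genes passed (1.19% of all genes higher and 0.995% lower), 1 was higher and 1 lower with limma and no minimum change (12.7% and 11.2% of all genes), and the median was -0.05. In mid cells 0 passed with limma (2.81% of all genes higher and 4.5% lower), 23 were higher without a minimum change (20.9%), 46 were higher than the controls without overlap (22.6%), and the median was 0.22. In distal cells 1 passed, Ndufa4l2, which was lower (6.9% of all genes lower and 7.37% higher). There 15 genes were higher and 2 lower without a minimum change (28.7% and 22.6%), and the median was 0.13 against 0.04 for all genes.

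**Figure D5:**
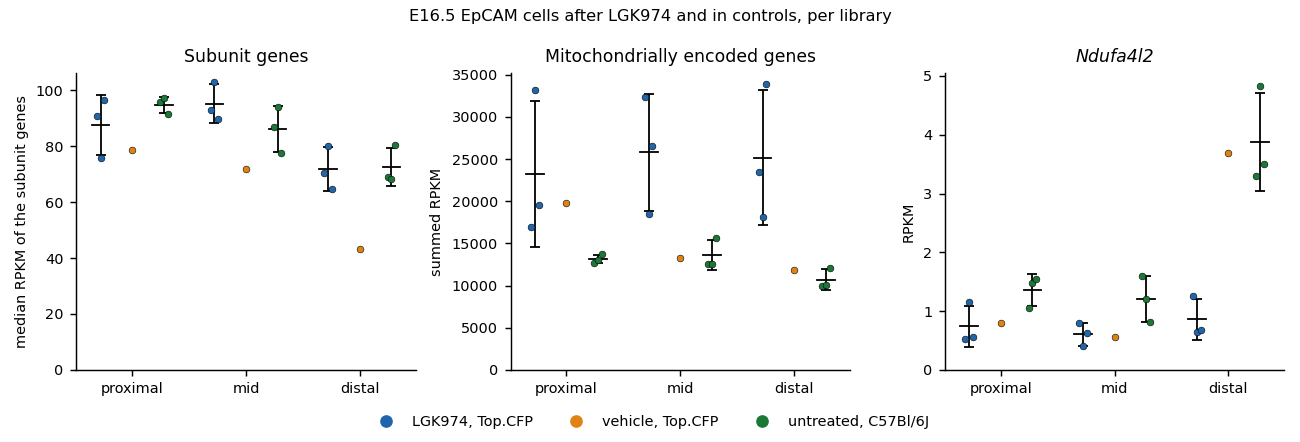
Median RPKM of the respiratory chain genes, summed RPKM of the 13 mitochondrially encoded subunits and RPKM of Ndufa4l2 in each EpCAM library by segment, with LGK974 (Top.CFP), vehicle (Top.CFP) and untreated (C57Bl/6J) libraries in that order. Points are libraries, and bars give the mean ± SD of 3 libraries. In the distal segment Ndufa4l2 was at 0.638 to 1.26 in LGK974 libraries, 3.68 in the vehicle library and 3.297 to 4.83 in untreated libraries.

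Ndufa4l2 was 1.26, 0.638 and 0.672 RPKM in distal LGK974 libraries, against 3.68 in the vehicle library and 3.297, 4.83 and 3.51 in untreated libraries. All treated libraries were below all controls, including the vehicle library of the same strain (-1.69, SE 0.24, adjusted p = 0.00063). In proximal cells it was 0.517, 1.15 and 0.561 RPKM in LGK974 libraries, 0.795 in the vehicle library and 1.05, 1.48 and 1.55 in untreated libraries. In mid cells it was 0.789, 0.400 and 0.625 RPKM in LGK974 libraries, 0.562 in the vehicle library and 1.59, 1.21 and 0.805 in untreated libraries. The values overlapped in these segments, and the effect in distal against proximal cells differed by -1.21 without reaching the threshold (adjusted p = 0.273). Within LGK974 cells its distal against proximal difference was 0.13 (SE 0.26, adjusted p = 1), beside 1.24 in untreated epithelium.

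Cox6b2 was the only gene of the chain called for a difference in response between the distal and proximal segments, and most alternatives lost that call. It was 0.0875, 0.391 and 0.535 RPKM in distal LGK974 libraries, against 1.08 in the vehicle and 0.700, 1.04 and 0.723 in untreated libraries. In proximal cells it was 2.68, 1.83 and 1.52 RPKM in LGK974 libraries, against 0.894 in the vehicle and 0.752, 1.01 and 1.30 in untreated libraries. LGK974 libraries were thus below the controls in the distal and above them in the proximal segment, at levels near 1 RPKM. The difference of the effects was -1.49 (SE 0.31, adjusted p = 0.0468, with 2.82% of all genes called lower), and within LGK974 cells the distal against proximal difference was -1.59 (SE 0.23, adjusted p = 0.00115, with 6.96% called lower). The first of these calls was lost under 15 of the alternatives and kept under 10. Leaving out the distal or the proximal vehicle library was among those that lost it.

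The vehicle libraries had lower levels of the chain than the untreated ones, which bears on the comparisons of LGK974 with controls. The median RPKM of the 85 genes was 70.5, 80.2 and 64.6 in distal LGK974 libraries, 43.4 in the vehicle library and 68.9, 68.1 and 80.3 in untreated libraries. In mid cells it was 92.9, 103 and 89.8 in LGK974 libraries, 72.0 in the vehicle library and 86.9, 94.2 and 77.7 in untreated libraries. In proximal cells it was 90.8, 75.7 and 96.5 in LGK974 libraries, 78.7 in the vehicle library and 95.7, 97.2 and 91.7 in untreated libraries. Uqcrq gives an example, at 148, 173 and 121 RPKM in distal LGK974 libraries, 55.2 in the vehicle library and 105, 117 and 150.4 in untreated libraries.

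With Top.CFP libraries alone (9 LGK974, 3 vehicle, segment as covariate), 82 of 85 differences were positive, with a median of 0.40 against 0.01 for all genes. None of the 85 passed with limma and the minimum change (1.59% of all genes higher and 1.62% lower), and 61 were higher without it (21.5%, with 19.7% lower). With the 1 distal vehicle library as the only control, assumed to vary like the other groups, 18 genes were higher and 1 lower (8.05% and 6.21%) with a median of 0.69, while with untreated controls alone the distal median was -0.02. The answer for the chain as a set thus depended on which controls were used, and each segment has 1 vehicle library. The 3 vehicle libraries all carry replicate number 1, which stands for 1 mother if the numbers follow the study's model. The fit of Top.CFP libraries alone had no replicate block. Its 61 genes therefore rest on segments of a replicate counted as if they were independent.

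The mitochondrially encoded set had a positive median difference between LGK974 cells and the pooled controls in each segment. Its summed RPKM was 16960 to 33960 in LGK974 libraries, 19780 in the proximal, 13223 in the mid and 11831 in the distal vehicle library, and 9901 to 15656 in untreated libraries. Of the 13 genes, 7 were higher in the distal segment (median 1.197, led by ND5 at 1.51 and ND1 at 1.45, beside 7.37% of all genes) and 7 in the mean over segments (median 0.91, beside 4.82% of all genes higher and 5.47% lower), and none passed in proximal (0.64) or mid cells (0.89). Within Top.CFP libraries 13 of 13 were positive, with a median of 0.73 and 0 calls with limma. Against the vehicle library alone the median was 0.16 in proximal, 0.87 in mid and 1.02 in distal cells. The sum was spread widely among LGK974 libraries of 1 segment, as in distal cells, where it was 23430, 18152 and 33960.

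Enterocyte markers were higher with the inhibitor as well, summing to 2048 to 3128 RPKM in distal LGK974 libraries, 88.8 in the vehicle library and 257 to 648 in untreated ones. Blood markers summed to 15.3 to 26.1 RPKM in distal LGK974 libraries, 29.0 in the vehicle library and 129.8 to 338 in untreated ones, and the part of both lists in these differences was not tested. Over the segments, the beta oxidation genes Cpt1a (1.01) and Acadl (0.72) were higher in LGK974 cells, as were Slc25a4 (1.33), an ADP and ATP carrier, and the pyruvate carboxylase Pcx (0.997), and Esrrg (-1.16), another ERR receptor, was lower. Ppargc1b (0.67, adjusted p = 0.157), Esrra (0.44), Myc (-0.59), Ppargc1a (0.11), Nrf1 (-0.27), Tfam (-0.19) and Gabpa (-0.07) did not pass in the mean over segments. The effect on Myc differed between segments, by -1.45 for distal minus proximal (adjusted p = 0.0309 with limma), with 0.22 in proximal cells. Of the regulators named here only Myc passed for that difference. Slc25a4 passed as well, at 1.35 (adjusted p = 0.00484), with 0.52 in proximal cells. So did Hk1 of the glycolysis list, at -2.32 (adjusted p = 0.000282 with limma), and Polg, at 0.99 (adjusted p = 0.0133). Their effects in proximal cells were 0.98 for Hk1 and -0.16 for Polg.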

How the data were processed

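The authors aligned reads to mm10 with Rsubread, counted them per RefSeq gene and strand with featureCounts, and deposited RPKM values from edgeR, scaled within each of 4 tables separately. Libraries were grouped by their labels, and no per-sample column was left unmapped. RPKM were analysed as log2(RPKM + 0.5) with limma 3.58.1 in R 4.3.3 (trend, robust, minimum log2 change 0.5, Benjamini-Hochberg over all genes tested) for genes at or above 1 RPKM in at least 3 libraries. The replicate number, which stands for the mother in the study's model, was a block except in the inhibitor table, where treated and control dams differ. Same-numbered libraries deviated together on average (mean correlation 0.137 to 0.239, over 0.1 in 59 of 108 pairs of the E16.5 sorts), but not in all pairs, and less so among LGK974 libraries (0.0579, 3 of 9 pairs). The fit was tested on simulated data. Libraries of a group are separate samples per the labels. Tables were never compared by a test. A deposited column of average log2 expression, made by the authors, was not used. Named genes were those with the largest called changes (up to 5 each way), isoform sets, core subunits, up to 4 called genes of each other list and 7 regulators. Genes and lists were chosen with earlier results of these data known.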

Additional observations from a re-analysis of the deposited data

Results flagged for a closer look

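Of 21 medians and sums checked in control groups of 4 libraries, 3 had 1 library far from the rest. For any of the 4 libraries, chance gives about 1 in 20 per check. In each of the 3 it was the vehicle library. The 21 checks share libraries and genes, so they are not independent. In proximal cells the mitochondrially encoded sum was 19780.2 RPKM in the vehicle library and 12701 to 13730 in untreated libraries. The complex II median was 100.04 RPKM in the proximal vehicle library, with 120.0 to 122.9 in untreated libraries, and 82.8 RPKM in the mid vehicle library, with 109.6 to 112.0 in untreated ones. The vehicle libraries also differ in strain label, which cannot be told apart from the vehicle itself.

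The LGK974 effect on Cox6b2 differed between the distal and proximal segments by -1.49 on the log2 scale, at levels near 1 RPKM. The call was lost under 15 of the alternatives and kept under 10.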

How the results depend on the processing

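No called result changed direction, while 10 named gene results that were not called crossed 0, as did the distal LGK974 median (0.13, and -0.02 with untreated controls alone). The alternatives gave 1548 values for 69 named gene results, each a gene in a given comparison, so that a gene can appear several times. Of these values, 1490 kept their side of the threshold, 27 lost it and 31 gained it. The counts of genes called between EpCAM and mesenchymal sorts and between CD29-HIGH and PDGFRA-MED cells stayed within 1.5 times under every setting run.

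Dropping the minimum change raised counts to 61 for PDGFRA-HIGH against PDGFRA-MED, and for distal against proximal to 65 in EpCAM, 10 in PDGFRA-HIGH, 10 in PDGFRA-MED, 73 in CD29-HIGH, 40 in E13.5 EpCAM and 30 in LGK974 cells. For LGK974 against control it gave 2 in proximal, 23 in mid, 17 in distal, 27 in the mean over segments and 5 for the difference of effects. Passing in each segment left 2 calls for PDGFRA-HIGH against PDGFRA-MED. For EpCAM distal against proximal a pseudocount of 0.1 and a fit of the groups compared each gave 2. With the groups compared alone, mid LGK974 gave 1. The vehicle library alone as control gave 19 in distal cells.

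The call of Cox6b2 for the difference of effects fell to 0 with a pseudocount of 1, quantile normalization, the groups compared alone or untreated controls alone. With vehicle controls alone it was lost too, and 2 other genes were called higher. Leaving out 1 library gave 0 to 1, with 0 without either vehicle library or without replicate 1 or 2 of the untreated or LGK974 libraries of these segments. The mean over segments gained 1 call, against 0, with a pseudocount of 0.1, median centring, limma-voom on recovered reads, untreated controls or vehicle controls alone, and 0 to 1 without 1 library (1 without the proximal or mid vehicle library, proximal LGK974 replicate 2 or distal LGK974 replicate 1). Leaving out 1 library gave 0 to 1 for CD29-HIGH (1 without proximal CD29-HIGH replicate 3) and for E13.5 EpCAM distal against proximal (1 without replicate 1). Median centring moved the age ratio to 1.08 in proximal and 0.91 in distal cells. The causes of these changes were not tested.

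Without the replicate block the counts were 81 for EpCAM against PDGFRA-HIGH, 84 against PDGFRA-MED, 5 for PDGFRA-HIGH against PDGFRA-MED, 71 for CD29-HIGH and 1 for EpCAM distal against proximal. With the replicate block the inhibitor counts were 0 in proximal, 0 in mid and 1 in distal cells, and the block changed no other count by over 1.5 times. Dividing RPKM by the value of 1 read gave whole reads for 100% of values (within 0.01), and limma-voom on them called 82 genes for EpCAM against PDGFRA-HIGH and 84 against PDGFRA-MED, and 0 for distal against proximal in PDGFRA-HIGH, PDGFRA-MED, CD29-HIGH and E13.5 EpCAM cells. RPKM near or under 1, as for Cox6b2 and Cox4i2 in epithelium, rest on few reads.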
